A study of Solanum lycopersicum with 15 samples.

Results

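The genes described here stood highest in tomato roots given nitrate, above every library of the other regimes. They are 78 of the 34075 genes in the expression table. They were chosen on their own values. A gene was taken if, in the means of log2(FPKM + 1) per regime, the widest gap between neighbouring regimes lay directly below nitrate and was at least 1, if each of the 3 nitrate libraries exceeded each of the 12 other libraries, and if a regime reached a mean of at least 5 FPKM. FPKM counts fragments corrected for transcript length and for the mapped fragments of a library, so levels of different genes are compared per length. Of the 13750 genes that reached 5 FPKM, 80 met these conditions, and 2 of them were left out by the rule and are not described. The position of nitrate above the other regimes is therefore how the genes were picked and is given below as a description, with no test.

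Polyadenylated RNA was sequenced from whole roots of Solanum lycopersicum in 5 regimes with 3 libraries each. Control roots had neither iron nor nitrogen, a second regime was given iron back with no nitrogen, and the remaining regimes were given iron back together with nitrate, ammonium or urea. All regimes but the control thus share the iron resupply. The labels give no cultivar, plant age, concentration or time after resupply, and do not say whether replicates came from separate plants, so the p-values measure the spread between libraries, which may be technical. The table carries no read counts, and with depth unknown the counting error of a value cannot be stated. In bulk roots, fewer cells that express a gene and less RNA per cell cannot be told apart.

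As background, nitrate acts in roots both as a nutrient and as a signal. It enters through transporters in the plasma membrane, is reduced to nitrite by nitrate reductase and on to ammonium by nitrite reductase, and is then built into glutamine. In Arabidopsis, NIN-like transcription factors bind nitrate-responsive elements and switch on the genes of uptake and reduction soon after nitrate arrives. Ammonium enters assimilation without reduction, and urea is first split by urease. The table pairs no identifier with a name, sequence or product, and the RefSeq gene table at hand contains none of these identifiers. Genes are therefore given by their ITAG4.0 identifier without that suffix, with the chromosome the identifier names and with no role, and the genes of nitrate uptake and reduction could not be picked out among them.

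Expression of the 78 genes with nitrate spanned from 5.23 to 1199 FPKM as means per gene, with a median of 41.4 FPKM. A mean of at least 100 FPKM was reached by 21 of them, of at least 1000 FPKM by 2, and 6 stayed under 10 FPKM. The gap below nitrate had a median of 1.46 on the log2(FPKM + 1) scale and ran from 1.01 to 3.53. It was at least 2 in 18 genes and at least 3 in 3 genes. As a ratio of mean FPKM, nitrate exceeded the next regime by a median of 3.09-fold, and by at least 4-fold in 24 genes.

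**Figure D1:**
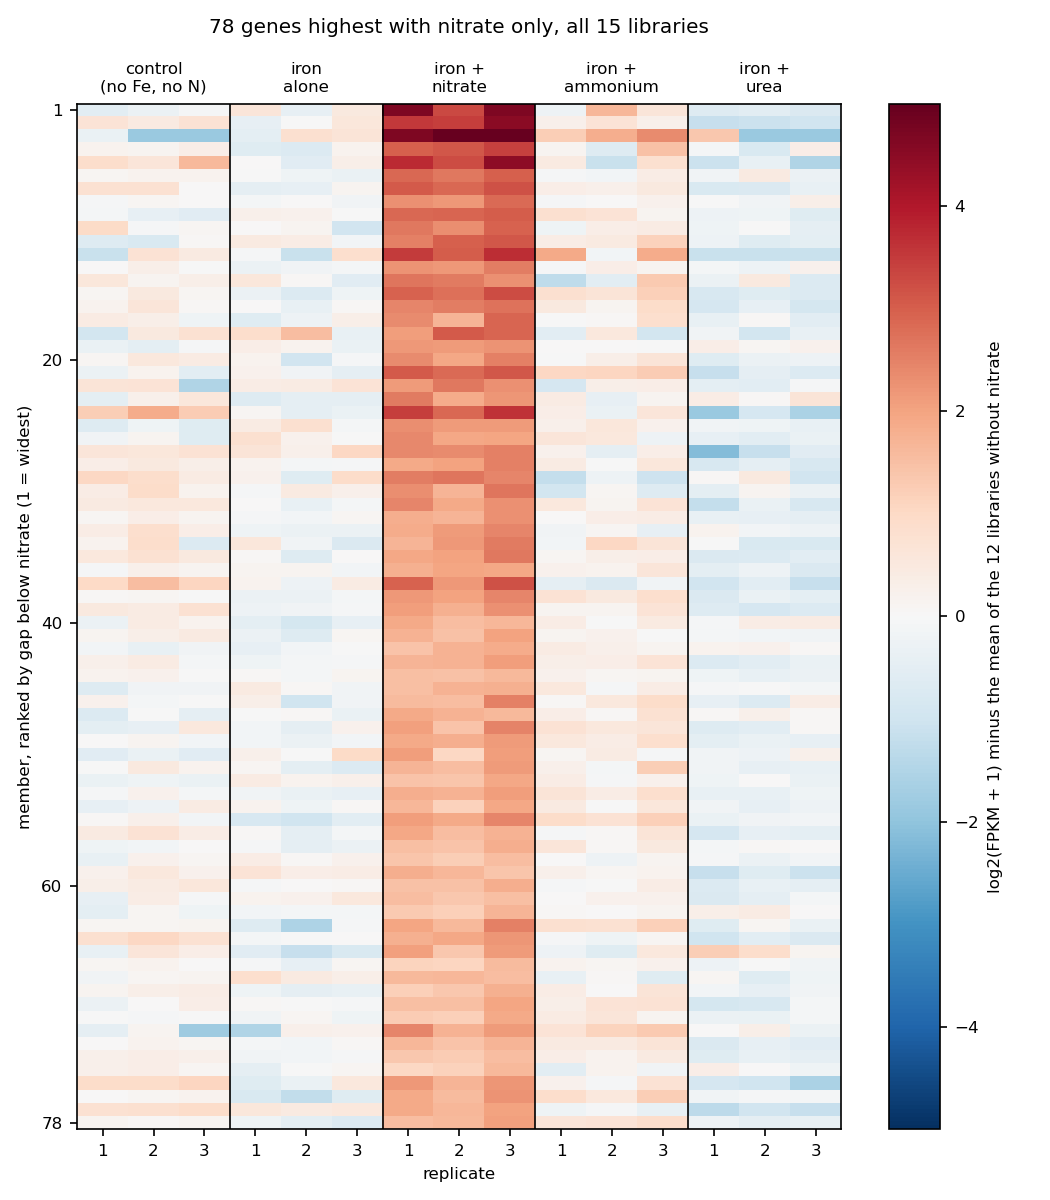
Each row is one of the 78 genes, ranked by the gap below nitrate, and each column a library. Colour is log2(FPKM + 1) minus the gene's mean over the 12 libraries without nitrate. The nitrate columns are red in every row, as the choice of genes requires, while the urea columns are bluer than the ammonium columns in most rows.

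The widest gap belonged to Solyc08g007430 on chromosome 8. It stood at 55.4, 21.2 and 55.5 FPKM in the 3 nitrate libraries, at 0.873, 6.12 and 2.44 FPKM with ammonium, at 2.43, 0.707 and 2.17 FPKM with iron alone, at 0.552, 0.852 and 1.13 FPKM in the control and, with urea, at 0.449, 0.575 and 0.339 FPKM. Nitrate replicate 2 was the lowest of its regime and was still above every other library. The gap was 3.53 and the ratio to the ammonium mean 14.0.

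Solyc01g108710 on chromosome 1 came next with a gap of 3.23. It stood at 49.2, 46.1 and 98.2 FPKM with nitrate, at 5.96, 4.85 and 5.99 FPKM in control roots, at 4.10, 5.96 and 4.14 FPKM with ammonium, at 2.26, 3.19 and 5.38 FPKM with iron alone and at 0.924, 1.06 and 1.17 FPKM with urea. The 3 urea libraries were the lowest of all and did not overlap with any other regime. Urea lay below iron alone by 1.11 on the log2 scale (standard error 0.27, adjusted p = 0.012), below control by 1.68 (0.27, 0.00057) and below ammonium by 1.47 (0.27, 0.0042). The call against iron alone was lost without iron-alone replicate 3 (adjusted p = 0.054).

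Solyc03g119180.1 on chromosome 3 had no steady level outside nitrate. With nitrate it stood at 90.1, 118 and 126 FPKM, with ammonium at 7.38, 11.6 and 17.5 FPKM, and with iron alone at 1.54, 5.19 and 4.67 FPKM. The control libraries listed it at 1.82, 0 and 0 FPKM and the urea libraries at 8.00, 0 and 0 FPKM. An exact 0 in such a table can be a failed estimate, so no mean is given for these regimes, and the tests against them rest on the values at 0 as listed. Ammonium was above control without overlap (adjusted p = 0.0067), and the call above urea (adjusted p = 0.034) was lost under 8 of 23 alternatives, over a range of 0.0010 to 0.12. It was lost without each of ammonium replicate 1, 2 and 3 (0.056, 0.074 and 0.11) and without urea replicate 2 and 3 (0.12 and 0.11).

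The other 3 of the 6 widest gaps were between 2.68 and 2.86. Solyc03g078620.1 on chromosome 3 reached 62.7, 67.6 and 85.2 FPKM with nitrate, and its highest other library was ammonium replicate 3 at 20.7 FPKM. Solyc11g069760.1 on chromosome 11 reached 72.0, 52.4 and 122 FPKM with nitrate. It was lower with urea, at 1.60, 3.26 and 0.931 FPKM, than in control roots, at 9.06, 7.28 and 15.8 FPKM. The log2 change was -2.01 (standard error 0.48, adjusted p = 0.0069). With iron alone it stood at 4.54, 2.73 and 5.65 FPKM. Urea against iron alone was not called (-0.89, standard error 0.48, adjusted p = 0.22), and these libraries overlapped. The third, Solyc10g086710 on chromosome 10, was called in no comparison among the other regimes. It reached 222, 189.9 and 239 FPKM with nitrate and stood between 23.3 and 40.3 FPKM in all 12 other libraries.

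**Figure D2:**
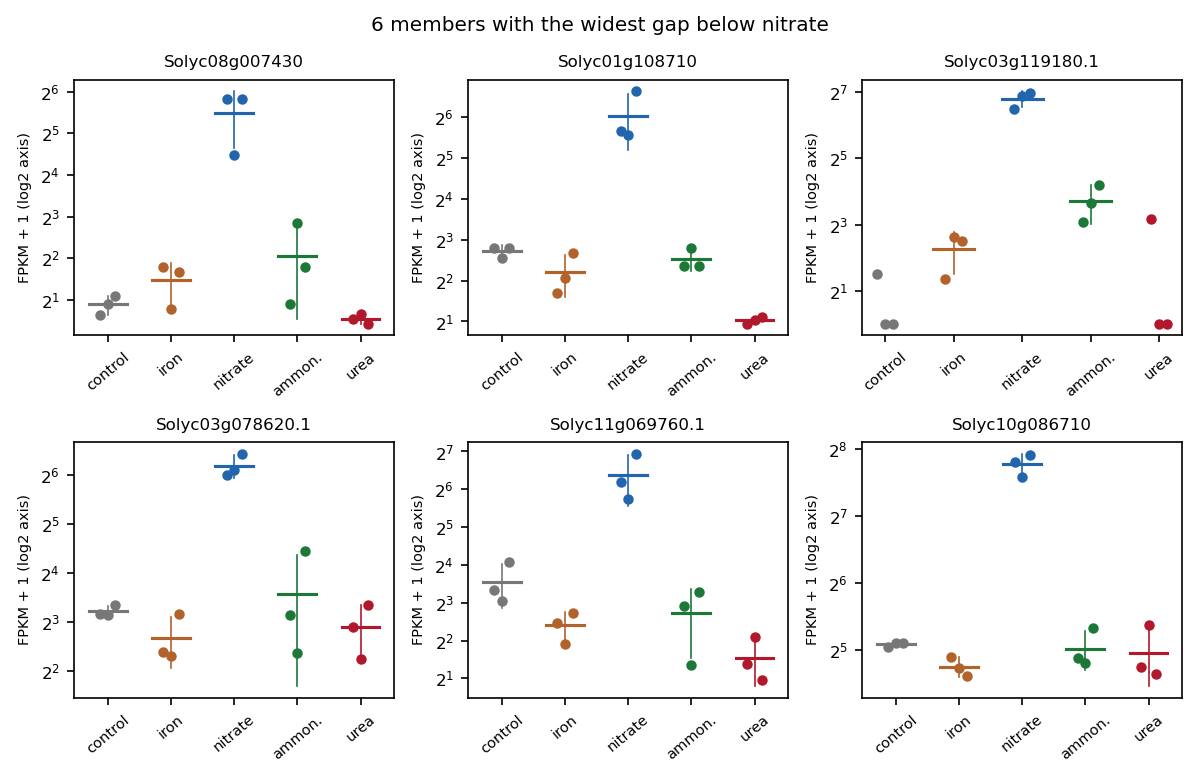
FPKM + 1 on a log2 axis for the 6 genes with the widest gap below nitrate, by regime. Points are libraries, horizontal bars the mean and vertical lines 1 SD (n = 3), left out where a library is listed at 0. Every nitrate point lies above all others, and the urea points of Solyc01g108710, at 0.924 to 1.17 FPKM, lie below all others.

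The genes with the highest levels were not those with the widest gaps. Solyc12g056120.1 on chromosome 12 reached 1142, 1099 and 1358 FPKM with nitrate (1199 ± 139, SD, n = 3), 2.54 times the ammonium mean of 471 ± 80.7 FPKM. Solyc07g017780 on chromosome 7 reached 1113, 1073 and 1287 FPKM, 2.10 times its ammonium mean. Solyc02g024050 on chromosome 2 reached 839, 741 and 1015 FPKM and Solyc10g050890 on chromosome 10 reached 502, 439 and 617 FPKM, at 2.87 and 4.32 times their ammonium means. Together these 4 genes held 42.9% of the summed FPKM of the 78 genes with nitrate and 44.9% to 50.2% in the other regimes.

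Summed over the 78 genes, FPKM came to 8469, 7765 and 9954 in the nitrate libraries, 1.37% to 1.77% of all FPKM of those libraries. It came to 2806, 2575 and 3260.5 with ammonium, 2298, 2567 and 2352 in control roots, 2017, 1843 and 2028 with iron alone and 1436, 1647 and 1542 with urea. Among the regimes without nitrate, ammonium libraries were the highest and urea libraries the lowest, with no overlap between any pair of these 4 regimes. Without the 4 most expressed genes the urea sums, 777 to 871 FPKM, were still below those with iron alone, 1005 to 1142 FPKM, while ammonium, 1312 to 1618 FPKM, and control, 1210.5 to 1372 FPKM, then overlapped. The median gene gave a less even picture. It stood at 9.74, 8.84 and 14.2 FPKM with ammonium, 9.14 to 10.1 in control roots, 6.67 to 8.93 with iron alone and 6.37 to 7.17 with urea.

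**Figure D3:**
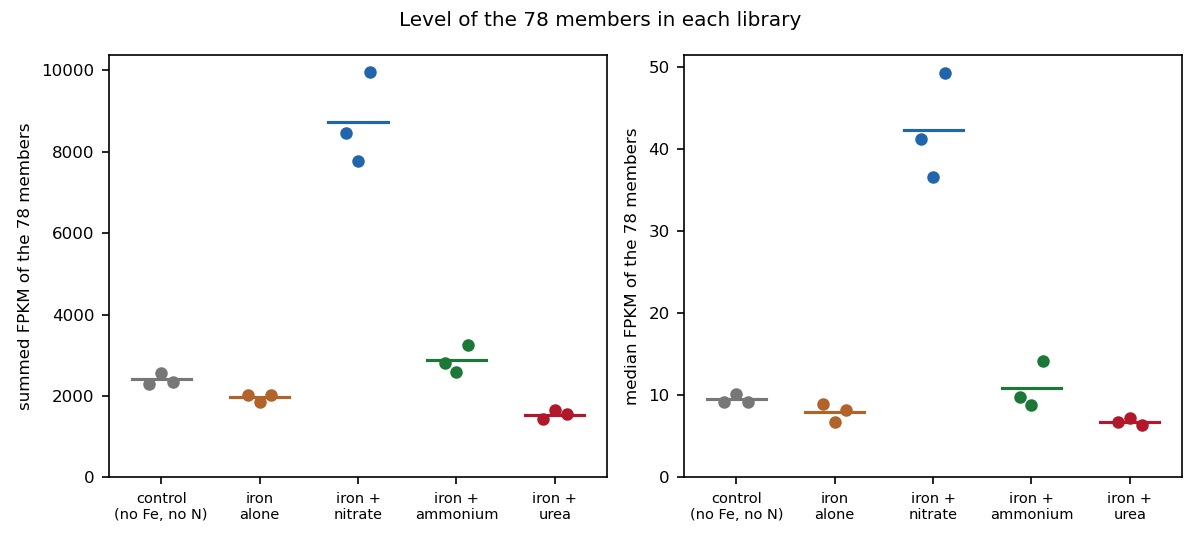
Summed FPKM (left) and median FPKM (right) of the 78 genes in each library, by regime, with a horizontal bar for the mean of the 3 libraries. Below nitrate, the sums run from ammonium at 2575 to 3260.5 down to urea at 1436 to 1647, and 1 ammonium library, at a median of 14.2 FPKM, stands above the other two.

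The direction of differences among the 4 regimes without nitrate was not fixed by the way the genes were chosen. Their size was limited, because each step between neighbouring regimes had to be smaller than the gap below nitrate. The 4 regimes were compared by limma on log2(FPKM + 1), fitted to all 15 libraries. P-values were adjusted by Benjamini-Hochberg over the 18889 genes that reached 1 FPKM in 3 or more libraries. A gene was called at an adjusted p under 0.05. Placing every nitrate library above the other 12 can also favour genes with little spread between replicates. Such genes are called more readily, and the spread in the fit includes the nitrate libraries. The part of this in the shares called was not tested. All 78 genes entered the fit, and 76 would have done so on the other 12 libraries alone. The exceptions were Solyc06g083160.1 and Solyc04g007200. Outside nitrate, the median level of the set was about that of the table. Medians of log2(FPKM + 1) were 2.88 to 3.93 per library against 3.27 to 3.45 for all tested genes. Among the 12649 genes with a mean of at least 5 FPKM over all 15 libraries, larger shares were called in every comparison and direction. For ammonium above urea the share was 11%, against 48.7% of the 78 genes. For urea below iron alone it was 17.8%, against 25.6% of the 78. These shares are not matched by level outside nitrate. The mean includes the nitrate libraries, and some of the 78, such as Solyc08g007430, passed it only through them. Others, such as Solyc06g083160.1, fell below it, were not tested there and count as not called. In total 55 of the 78 genes were called in at least 1 of the 6 comparisons, or 70.5%, against 42.7% of all tested genes, and 23 were called in none. This share was not computed for the genes with a mean of at least 5 FPKM. The 6 comparisons share libraries, so their counts are not independent of each other.

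Ammonium against urea gave the most calls. Of the 78 genes, 37 were higher with ammonium, or 47.4%, where 7.09% of all tested genes were called in that direction. By limma 0 were lower with ammonium (1 at an unadjusted p under 0.05), where the share of all tested genes was 3.97%. Calls of at least 2-fold numbered 19 of the 78, or 24.4%, against 0.762% of all tested genes. Over the whole set the median log2 difference was 0.70, against 0.07 for all tested genes, and 68 of the 78 differences were positive. The number called was 29 to 39 when any single library was left out. After scaling by median-of-ratios size factors it was 35 higher and 0 lower, where all tested genes gave 4.34% and 5.53%.

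All 4 of the most expressed genes were among the 37. Solyc10g050890 stood at 113, 99.96 and 148 FPKM with ammonium and at 36.6, 41.7 and 39.2 FPKM with urea, a log2 difference of 1.58 (standard error 0.17, adjusted p = 9.5e-05). Solyc02g024050 stood at 309.6, 261 and 333 FPKM with ammonium and at 113, 146 and 132 FPKM with urea (1.20, standard error 0.13, adjusted p = 7.6e-05). The ammonium and urea libraries of both genes were far apart, with control and iron alone between them in every library of Solyc02g024050. Solyc12g056120.1 and Solyc07g017780 differed by 0.99 and 0.79 (standard errors 0.12 and 0.09, adjusted p = 0.00023 and 0.00016).

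The largest difference between ammonium and urea after that of Solyc03g119180.1 was in Solyc11g045410.1 on chromosome 11. It stood at 7.17, 0.981 and 6.88 FPKM with ammonium and was listed at 0 in all 3 urea libraries (adjusted p = 0.024, with the values at 0 taken as listed), against 23.7, 16.8 and 26.8 FPKM with nitrate. It was also listed at 0 in 1 control and 1 iron-alone library. Leaving out ammonium replicate 1 or 3 ended the call (adjusted p = 0.099 and 0.089), as did leaving out urea replicate 1, 2 or 3 (0.081, 0.056 and 0.053), and the alternatives spanned 0.0059 to 0.099. A steadier example, named after its values were seen, was Solyc01g107190 on chromosome 1, at 58.2, 60.6 and 68.4 FPKM with ammonium and 12.2, 20.4 and 17.3 FPKM with urea (log2 difference 1.87, standard error 0.21, adjusted p = 0.00011). Its nitrate libraries stood at 240.1, 206 and 252 FPKM.

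**Figure D4:**
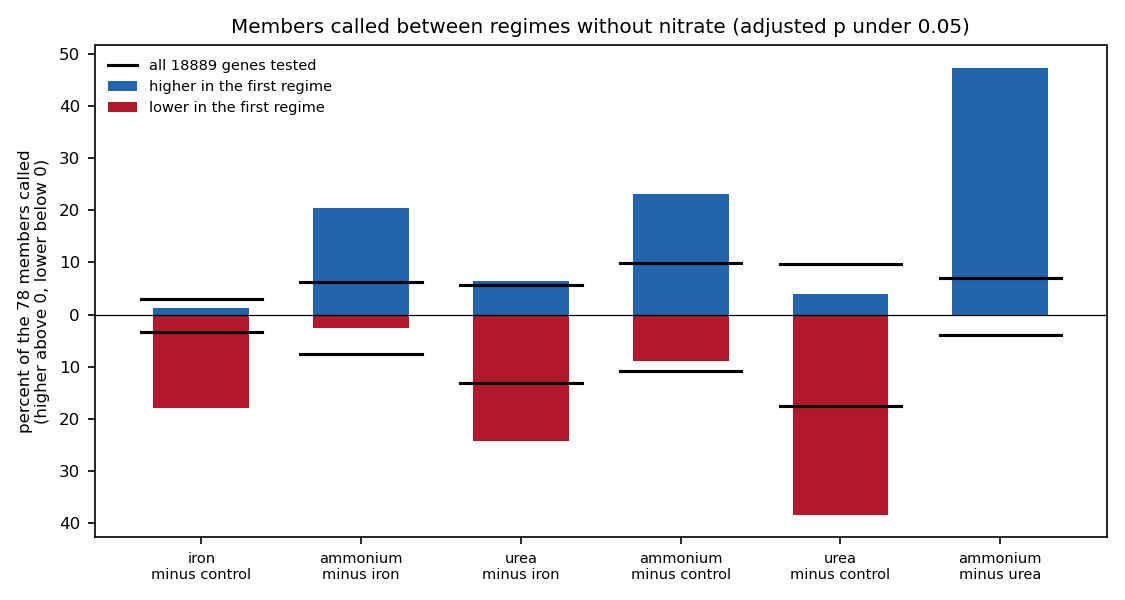
Share of the 78 genes called in each comparison among the regimes without nitrate, higher in the first regime above 0 and lower below 0. Black lines give the share of all 18889 tested genes. For ammonium minus urea the bar reaches 47.4% against a line at 7.09%, with no bar below 0.

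Urea against control was the next in number of calls. Control roots also lacked iron, so urea and the iron resupply cannot be told apart in this comparison. With urea 30 of the 78 genes were lower than in control roots, or 38.5%, against 17.6% of all tested genes, and 3 were higher, against 9.74%. Falls of at least 2-fold numbered 16 of the 78, or 20.5%, against 4.04% of all tested genes. The median log2 change of the set was -0.43, and -0.09 over all tested genes. With size factors 25 fell and 4 rose, where all tested genes gave 13.4% and 14.3%. Left-out libraries moved the number that fell to between 26 and 31. The 3 that rose became 0 without control replicate 1 or urea replicate 1 and 1 without control replicate 3, iron-alone replicate 2, urea replicate 2 or urea replicate 3.

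The largest fall from control to urea was that of Solyc04g025750 on chromosome 4, whose other regimes also differed. Control libraries read 27.9, 43.5 and 28.3 FPKM. It stood at 12.1, 7.98 and 8.71 FPKM with iron alone, at 14.3, 8.63 and 17.7 FPKM with ammonium and at 2.36, 5.77 and 3.02 FPKM with urea, against 134, 88.9 and 147 FPKM with nitrate. Control libraries were the highest and urea libraries the lowest of the 12, while iron alone and ammonium overlapped. The log2 change from control was -2.90 with urea (standard error 0.30, adjusted p = 1.8e-05), -1.68 with iron alone (0.30, 0.0066) and -1.26 with ammonium (0.30, 0.0093).

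Solyc10g044700 on chromosome 10 had a like order. Control libraries read 17.2, 17.4 and 19.6 FPKM and urea libraries 4.44, 3.85 and 2.26 FPKM, a log2 change of -2.11 (standard error 0.28, adjusted p = 0.00012). With iron alone it stood at 5.45, 6.67 and 13.0 FPKM and with ammonium at 10.4, 8.43 and 15.0 FPKM, and these regimes overlapped. The 2 called genes with the largest rise above control, Solyc05g009720 on chromosome 5 and Solyc09g072590 on chromosome 9, rose by 0.48 and 0.43 (standard errors 0.15 and 0.15, adjusted p = 0.030 and 0.044). Solyc05g009720 stood at 6.47, 5.32 and 5.82 FPKM with urea and 3.79, 3.28 and 4.72 FPKM in control roots, and Solyc09g072590 at 58.3, 63.2 and 48.8 against 33.9, 51.5 and 41.2 FPKM. The call of Solyc09g072590 was lost under 15 of 23 alternatives, with adjusted p between 0.012 and 0.18. For Solyc05g009720 it was lost without control replicate 1 or 2 (0.075 and 0.12) and without urea replicate 1 or 3 (0.11 and 0.065), with adjusted p between 0.0071 and 0.12.

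**Figure D5:**
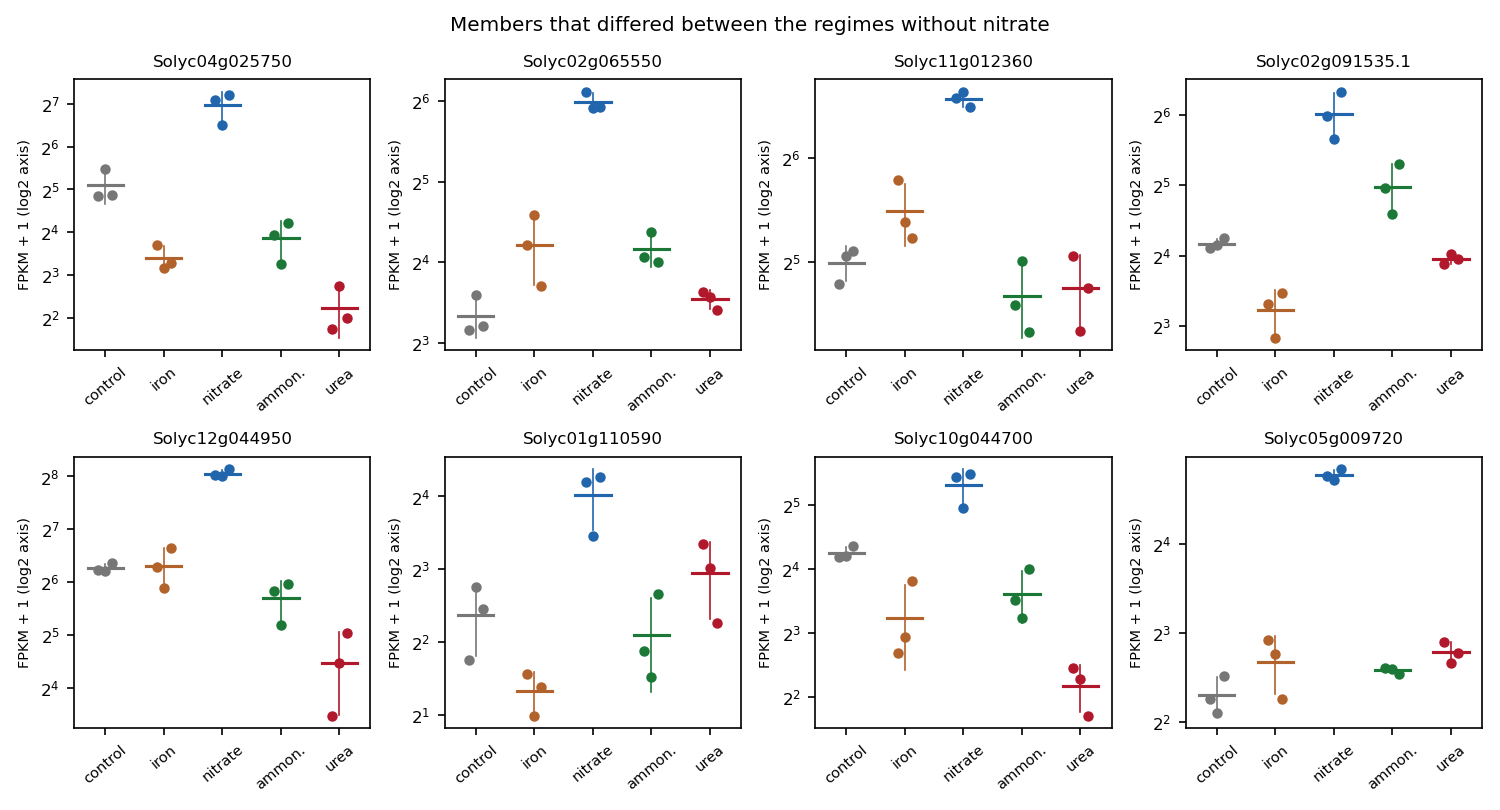
FPKM + 1 on a log2 axis for 8 genes that differed between regimes without nitrate. Points are libraries, horizontal bars the mean and vertical lines 1 SD (n = 3). Solyc04g025750 falls from control at 27.9 to 43.5 FPKM to urea at 2.36 to 5.77 FPKM, and Solyc02g091535.1 is lowest with iron alone and highest, below nitrate, with ammonium.

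Against iron alone, urea lowered 19 of the 78 genes, or 24.4%, beside 13.2% of all tested genes, and raised 5, or 6.41%, beside 5.75%. The median log2 change was -0.36 for the set and -0.10 for all tested genes. With size factors 12 were lower, or 15.4%, and 7 higher, or 8.97%, where the shares of all tested genes were 8.32% and 9.58%. The share raised was thus close to that of all tested genes, under both scalings. The number lowered was 11, 12 and 12 without iron-alone replicate 1, iron-alone replicate 3 and urea replicate 1, and the number raised was 3, 2, 2 and 3 without iron-alone replicate 1 and 2 and urea replicate 2 and 3.

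Solyc12g044950 on chromosome 12 showed the largest of these falls. It went from 76.6, 57.9 and 99.3 FPKM with iron alone to 10.1, 21.2 and 32.0 FPKM with urea, a log2 change of -1.94 (standard error 0.31, adjusted p = 0.00083). Its control libraries, at 73.7, 72.8 and 80.7 FPKM, lay within the range of iron alone. Solyc05g005490 on chromosome 5 fell from 104, 96.8 and 103 FPKM to 28.3, 35.9 and 30.8 FPKM (-1.65, standard error 0.11, adjusted p = 7.8e-07). With ammonium it fell from iron alone to 61.0, 67.5 and 55.1 FPKM (-0.72, standard error 0.11, adjusted p = 0.00082). Its regimes thus stood apart without overlap in the order nitrate, control, iron alone, ammonium, urea. The step from control to iron alone was not called (-0.32, standard error 0.11, adjusted p = 0.094).

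Neighbouring genes on chromosome 1, Solyc01g110590 and Solyc01g110580.2, had the largest rises among the genes called higher with urea than with iron alone. Solyc01g110590 went from 1.95, 0.980 and 1.61 FPKM to 9.14, 7.10 and 3.81 FPKM (log2 change 1.57, standard error 0.36, adjusted p = 0.0078). Solyc01g110580.2 went from 0.322, 0.501 and 0.528 FPKM to 1.70, 1.16 and 2.22 FPKM (0.88, standard error 0.29, adjusted p = 0.0499). Every iron-alone library of Solyc01g110580.2 was under 1 FPKM, so the size of its rise cannot be judged. The second of these calls lies at the threshold and was lost in 10 of 22 alternatives, among them the omission of any single iron-alone or urea library (adjusted p = 0.051 to 0.15), and its lowest value was 0.027.

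Ammonium raised 16 of the 78 genes over iron alone, or 20.5%, against 6.29% of all tested genes, and lowered 2, or 2.56%, against 7.58%. The median log2 change was 0.43 for the set and -0.03 for all tested genes. Left-out libraries gave 12 to 20 raised genes, and 1 lowered gene without iron-alone replicate 1, ammonium replicate 1 or ammonium replicate 3. Relative to control, 18 were higher with ammonium, or 23.1%, against 9.89% of all tested genes, and 7 were lower, or 8.97%, against 10.9%. Here the median change was 0.11 for the set and -0.02 for all tested genes. Ammonium and the iron resupply cannot be told apart in this comparison with control.

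The largest rises with ammonium over iron alone were in genes that were lowest with iron alone. Solyc02g091535.1 on chromosome 2 went from 8.96, 6.12 and 10.1 FPKM with iron alone to 30.1, 23.2 and 38.5 FPKM with ammonium (log2 change 1.74, standard error 0.20, adjusted p = 0.00012). Its control and urea libraries lay between, at 16.2 to 18.0 and 13.7 to 15.3 FPKM. Solyc01g086650 on chromosome 1 had the same order of regimes. It was at 17.8, 15.5 and 21.7 FPKM with iron alone, 60.7, 53.8 and 73.5 FPKM with ammonium, 32.9, 38.3 and 29.0 FPKM in control roots and 25.1, 28.5 and 28.8 FPKM with urea (1.72 for ammonium over iron alone, standard error 0.16, adjusted p = 2.9e-05).

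Only Solyc11g012360 and Solyc05g005490 were called lower with ammonium than with iron alone. Solyc11g012360 on chromosome 11 went from 54.1, 40.9 and 36.5 FPKM with iron alone to 23.1, 31.2 and 19.1 FPKM with ammonium (log2 change -0.82, standard error 0.20, adjusted p = 0.015). Its call was lost without iron-alone replicate 1 or ammonium replicate 1 or 3 (adjusted p = 0.060, 0.051 and 0.067), with 0.0065 to 0.067 over the alternatives. Against control, Solyc05g009340.1 on chromosome 5 was higher with ammonium, at 22.8, 31.2 and 35.8 against 9.89, 15.2 and 3.34 FPKM (1.74, standard error 0.48, adjusted p = 0.022). Leaving out control replicate 3 (0.097) or ammonium replicate 2 or 3 (0.056 and 0.070) ended that call, and the alternatives spanned 0.0062 to 0.097. The largest falls below control were in Solyc08g079150.1 on chromosome 8 and Solyc03g096760.1 on chromosome 3. Solyc08g079150.1 stood at 0.620, 0.356 and 0.994 against 3.53, 5.55 and 3.77 FPKM (-1.67, standard error 0.28, adjusted p = 0.00086). Its ammonium libraries were all under 1 FPKM, so the size of this fall cannot be judged. Solyc03g096760.1 stood at 1.56, 3.86 and 1.87 against 10.9, 9.66 and 6.83 FPKM (-1.60, standard error 0.39, adjusted p = 0.011).

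Iron alone against control, the comparison with no nitrogen on either side, called 14 of the 78 genes lower, or 17.9%, beside 3.43% of all tested genes, and 1 higher, beside 2.97%. The median log2 change was -0.29 for the set and 0.01 for all tested genes. The number lower was 6, 5 and 4 without control replicate 1, 2 and 3 and 5, 3 and 13 without iron-alone replicate 1, 2 and 3. Over all tested genes the number lower was 648, and it was 428, 306, 307, 332, 285 and 829 under the same omissions. Among the called genes the largest fall after that of Solyc04g025750 was in Solyc08g079150.1, from 3.53, 5.55 and 3.77 to 1.51, 0.885 and 1.99 FPKM (-1.11, standard error 0.28, adjusted p = 0.032). It was not called with a pseudocount of 0.1 (adjusted p = 0.14) or without control replicate 1, 2 or 3 or iron-alone replicate 1 or 2 (0.053 to 0.12), over a range of 0.017 to 0.14.

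The gene that rose with iron alone was Solyc02g065550 on chromosome 2. Control libraries read 7.92, 11.1 and 8.24 FPKM and iron-alone libraries 17.6, 23.0 and 12.1 FPKM (log2 change 0.85, standard error 0.19, adjusted p = 0.018). With nitrate it reached 68.3, 59.2 and 59.7 FPKM. The call was lost when only the compared regimes were fitted (0.089) and without control replicate 1 or 3 or iron-alone replicate 1 or 2 (0.066 to 0.074), over a range of 0.0028 to 0.089, and the count of genes that rose was then 0. It was 2 without iron-alone replicate 3, nitrate replicate 2, ammonium replicate 3 or urea replicate 1.

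Read by rank alone, ammonium was the second highest regime in 40 of the 78 genes, control in 23, iron alone in 11 and urea in 4. Urea was the lowest in 43, iron alone in 18, control in 12 and ammonium in 5. The same ranks were not counted over all tested genes. Urea was also lower across those genes, with a median log2 change of -0.10 from iron alone and -0.09 from control. Regimes next to each other in rank often did not differ by the test. The 4 means without nitrate lay within 1 of each other on the log2(FPKM + 1) scale in 43 genes and were spread over at least 2 in 6 genes, with a median spread of 0.93. The narrowest was that of Solyc06g083160.1 on chromosome 6, at 0.13: it stood at 4.57, 4.09 and 7.07 FPKM with nitrate and at 0.376 FPKM or less in each of the other libraries, where a pseudocount of 1 leaves little room for differences.

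Replicates of a regime did not rank alike in every gene. Among the nitrate libraries, whose values chose the genes, replicate 3 was the highest in 62 genes, or 79.5%, against 33.8% of all tested genes. Nitrate replicate 2 was the lowest in 54, or 69.2%, against 38.8%. Ammonium replicate 3 was the highest ammonium library in 50 genes, or 64.1%, where it was the highest in 30.4% of all tested genes, and control replicate 2 the highest control library in 45, or 57.7%, against 31%. For iron alone, replicate 3 was the highest in 46.2% against 41.1%, and for urea, replicate 2 in 46.2% against 35.1%, closer to the shares of all tested genes. Across the 3 nitrate libraries the coefficient of variation had a median of 19.1% over the genes. The relative scale of the libraries, as median-of-ratios size factors, was 1.02, 0.981 and 1.00 for nitrate replicate 1 to 3 and 1.02, 1.01 and 1.00 for ammonium, and its part in these ranks was not tested. Without nitrate replicate 3 the same conditions picked 73 genes, of which 62 were among the 78, and without nitrate replicate 1 or 2 they picked 96 each, with 74 and 78 of the 78.

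On the chromosomes the genes were spread over all 12, from 3 on chromosome 9 to 11 on chromosome 3. The share per chromosome was between 3.85% and 14.1%, where all tested genes gave 6.54% to 12.9% on these 12. In 4 pairs the identifiers followed each other directly in the table. These were Solyc01g110580.2 and Solyc01g110590, Solyc02g092480 and Solyc02g092490, Solyc03g063030 and Solyc03g063040, and Solyc10g086700 and Solyc10g086710. Another 2 pairs had 1 and 3 identifiers between them, Solyc03g119180.1 and Solyc03g119200, and Solyc06g083120.1 and Solyc06g083160.1. If neighbours are near-identical copies the counting could split reads between them, and this could not be checked because the sequences were not used here.

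The neighbours were not equal in level or behaviour. Solyc10g086700 reached 21.4, 17.3 and 27.0 FPKM with nitrate, far below the 222, 189.9 and 239 FPKM of Solyc10g086710, and stood at 0.841 to 6.00 FPKM elsewhere. Solyc03g119200, the neighbour of Solyc03g119180.1, was listed above 0 in every library. It stood at 134, 153 and 149.9 FPKM with nitrate, 44.3, 43.6 and 58.7 FPKM with ammonium, and 27.1, 31.5 and 22.6 FPKM with urea, the latter below ammonium by 0.83 (standard error 0.14, adjusted p = 0.0022). Solyc06g083120.1 stood at 398, 269 and 353 FPKM with nitrate, 103, 80.3 and 116 FPKM with ammonium and 31.0, 57.2 and 40.4 FPKM with urea (1.23, standard error 0.20, adjusted p = 0.0019).

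At the edge of the choice, Solyc12g097080 and Solyc05g005490 were just inside with gaps of 1.01 and 1.03, and Solyc03g031530 and Solyc06g064550 just outside with gaps of 0.999 and 0.99. Solyc03g031530 stood at 53.8, 38.7 and 50.7 FPKM with nitrate and at most at 28.9 FPKM elsewhere. In all, 196 further genes met every condition except the minimum gap. The same conditions turned to another regime gave 149 genes highest with urea only, 75 in control roots only, 9 with iron alone and 6 with ammonium only, and 24 genes lowest with nitrate only.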

How the data were processed

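Values were the FPKM per gene deposited by the authors, with no replicates pooled. Per the submitters' processing notes the aligner was HISAT2. Its version, the build and the program behind the FPKM values are not given in the sources used here. Columns were assigned to libraries by the library names in the labels. FPKM corrects for length and mapped fragments but not for RNA composition, and the depth behind it is unknown.

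The 18889 genes that reached 1 FPKM in 3 or more libraries were fitted as log2(FPKM + 1) with limma 3.58.1 in R 4.3.3, with 1 mean per regime over all 15 libraries and a mean-variance trend in eBayes. P-values are two-sided and adjusted by Benjamini-Hochberg over all genes tested. Changes of low genes are understated on this scale. The fit was tested on simulated data with known changes.

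The genes, the lists and the tests were chosen with earlier results of these data known. Named genes were the 6 widest gaps, the 4 highest levels with nitrate, the 2 highest and 2 lowest changes among the called genes of each comparison, the 2 genes on either side of the gap minimum, and neighbours by identifier. A list of nitrate-pathway genes, and a search of promoters for motifs, could not be matched to the identifiers and were not run. The alternatives were a pseudocount of 0.1, other filters, size factors, quantile normalization, no variance trend, only the compared regimes, a block for the replicate number, and omission of each library in turn.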

Additional observations from a re-analysis of the deposited data

How the results depend on the processing

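The choice of genes depended most on the gap: a gap of at least 2 left 18 genes, while the other settings gave 58 to 87 and left-out libraries 73 to 96. Over left-out libraries the genes called were, for ammonium minus urea, 29 to 39 higher and 0 to 0 lower, for urea minus control 0 to 3 higher and 26 to 31 lower, for urea minus iron alone 2 to 6 and 11 to 22, for ammonium minus iron alone 12 to 20 and 1 to 3, for ammonium minus control 12 to 19 and 5 to 8, and for iron alone minus control 0 to 2 and 3 to 15. For iron alone minus control, 2 rose with a pseudocount of 0.1 and 2 with the replicate block, 0 rose when only these regimes were fitted, and 9 fell with no filter. Size factors left 12 lower for urea minus iron alone, and a mean of at least 5 FPKM, which tests fewer genes, left 4 lower for ammonium minus control. For urea minus control, 1 rose with no filter, 1 with no variance trend and 1 with the replicate block. For the remaining settings the cause was not tested. For ammonium minus urea, the settings that used all its libraries gave 34 to 40 genes higher.

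Replicate numbers do not pair the libraries by the labels. Deviations of same-numbered libraries correlated at -0.11 to 0.14 over 30 pairs, with 3 above 0.1. These 3 were nitrate with ammonium for replicate 3 (0.14) and nitrate with iron alone for replicates 2 and 3 (0.12 each). The lowest was nitrate with iron alone for replicate 1 (-0.11). As a block the number gave 40 genes higher for ammonium minus urea, where 37 were called without it. Depth is unknown, so changes of genes under about 1 FPKM cannot be judged from these values.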
